A study of Homo sapiens with 12 samples.

Results

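The stretch described here is chromosome 4 from 80000001 to 160000000 on hg19, 80 Mb of the long arm, in which H3K9me2 calls differed between libraries. All intervals of the 10 deposited lists that reach into it were taken, 10281 of 416692. They comprise 3300 H3K9me2 islands, 6472 H3K9ac peaks of single libraries and 509 regions of the reproducible H3K9ac sets. The stretch was chosen because 1 H3K9me2 library, treated replicate 1, covered more of it than the others. H3K9me2 values are therefore given as a description without a test, and the tests are on H3K9ac, which the choice did not use.

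All libraries came from MDA-MB-231, an established human triple negative breast cancer line that was serum starved overnight. Untreated cells are the controls, and treated cells received 500 µM DETA/NO, which releases nitric oxide slowly, for 24 h. Each mark was profiled by chromatin immunoprecipitation and sequencing in 2 biological replicates per condition. The results describe 1 cell line, and neither its copy number along chromosome 4 nor the sequencing depth behind an interval is known from the lists.

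Lysine 9 of histone H3 can be acetylated or methylated, and the same residue cannot carry both at once. H3K9ac is laid down by acetyltransferases at active promoters and enhancers in narrow regions. H3K9me2 is written mainly by the methyltransferases G9a and GLP, is removed by demethylases that need iron and oxygen, and forms broad domains over silent, gene-poor chromatin. Here an H3K9me2 island is an interval that the authors called in 1 library on a grid of 500 bp and kept at a score of at least 5. No annotation on hg19 was used here, so loci are given by position without gene names.

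Treated replicate 1 held far more H3K9me2 in the stretch than any other library, and its own replicate did not share the excess. Islands covered 7.13 Mb in untreated replicate 1, 10.2 Mb in untreated replicate 2, 18.0 Mb in treated replicate 1 and 7.21 Mb in treated replicate 2. These lengths are 8.92%, 12.8%, 22.5% and 9.02% of the stretch in the same order. Treated replicate 2 and untreated replicate 1 lay side by side, untreated replicate 2 lay somewhat above them, and treated replicate 1 stood apart from all 3. The numbers of islands were 618 and 928 in the untreated and 1212 and 542 in the treated libraries. By condition, coverage was 8.67 Mb ± 2.17 untreated and 12.6 Mb ± 7.64 treated (SD, n = 2), so the difference of 3.95 Mb was smaller than the spread between treated replicates. Without treated replicate 1 the difference was -1.45 Mb.

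The lead of treated replicate 1 was not confined to this stretch. Its length was 2.20 times the mean of the other 3 libraries here, 1.59 times over the rest of chromosome 4 and 1.13 times over the other chromosomes. Chromosome 2 had a higher ratio, 2.81, on only 7.50 Mb of islands. The lead was uneven, with ratios of 1.89 on chromosome 12 and 1.47 on chromosome 1. Treated replicate 1 lay below the mean of the others on chromosomes 6, 11, 14, 15, 16, 17, 19, 20 and 22. Its ratio was lowest on chromosome 19, at 0.378. In absolute terms the stretch held 9.84 Mb of the 46.3 Mb by which treated replicate 1 exceeded that mean on 23 chromosomes, or 21.2%.

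**Figure D1:**
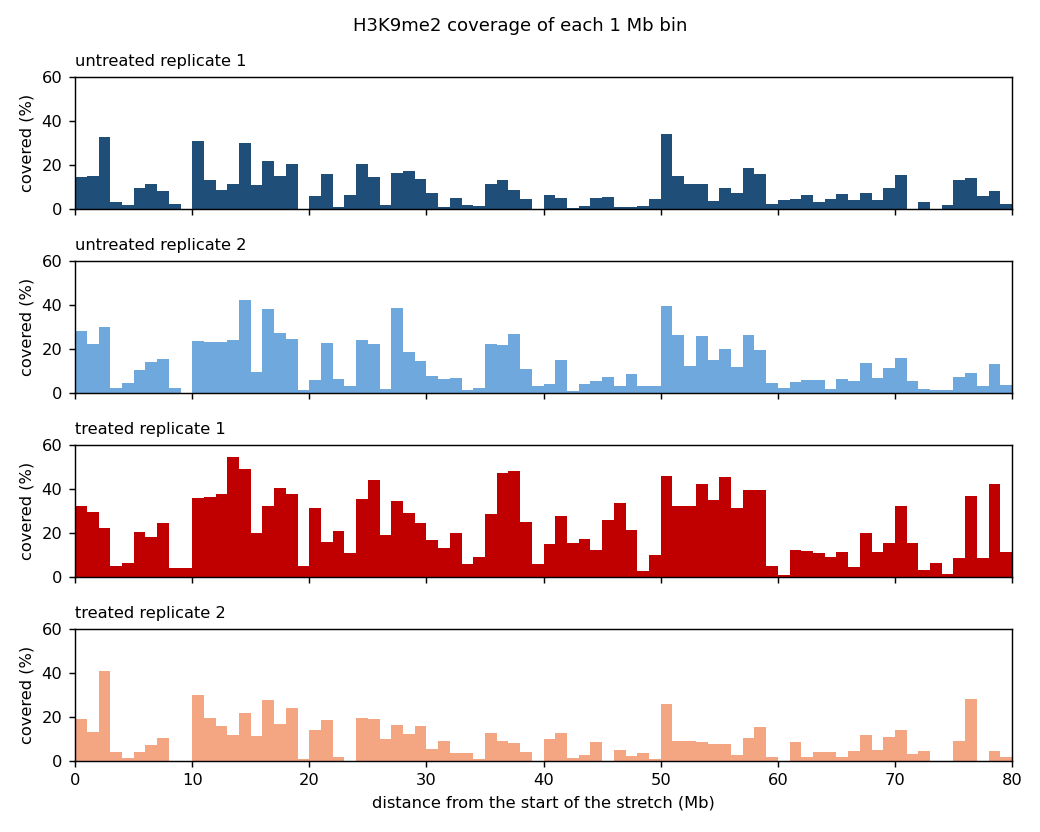
Percent of each 1 Mb bin covered by H3K9me2 islands (vertical axis) against the distance from the start of the stretch in Mb (horizontal axis), 1 panel per library. Treated replicate 1 reached 54.5% and was the highest of the 4 libraries in 70 of 80 bins.

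Along the stretch the libraries rose and fell in the same places. Median coverage of a 1 Mb bin was 6.70% and 8.95% in the untreated and 20.2% and 7.90% in the treated libraries. Across the 80 bins, coverage in treated replicate 1 correlated with that in untreated replicate 2 at a Pearson r of 0.80, with untreated replicate 1 at 0.64 and with treated replicate 2 at 0.60. Untreated replicate 1 and treated replicate 2 correlated at 0.86. These bins share libraries and neighbours, so the values are descriptive. Treated replicate 1 was the highest library in 70 of the 80 bins, against a background of 47.2% of all bins with an island, and this lead is what the stretch was chosen for. Untreated replicates 1 and 2 and treated replicate 2 were the highest in 3, 4 and 3 bins, beside 16.8%, 19.5% and 15.3% over the genome. Both treated libraries exceeded both untreated ones in 12 of 80 bins, 15.0%, beside 13.5% over the genome, and lay below them in 1, beside 12.4%.

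The bins with the highest mean coverage were those that begin at 130000001, 94000001, 82000001, 96000001 and 90000001. At 130000001 coverage was 34.2% and 39.6% untreated and 45.8% and 25.8% treated, replicates 1 and 2 in that order. At 94000001 it was 30.1% and 42.5% untreated and 49.1% and 21.9% treated. The bin at 82000001 went the other way for treated replicate 1, with 32.7% and 30.2% untreated and 22.4% and 40.9% treated. Treated replicate 1 was thus the lowest library there and treated replicate 2 the highest. At 96000001 the values were 21.7% and 38.1% untreated and 32.4% and 27.8% treated, and at 90000001 they were 30.8% and 23.5% untreated and 35.7% and 29.9% treated.

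The lead of treated replicate 1 over the next library was widest in other bins. From 93000001 to 94000000 it covered 54.5%, against 11.7% and 24.3% untreated and 11.8% in treated replicate 2. From 158000001 it covered 42.1%, against 8.10% and 13.2% untreated and 4.50% in treated replicate 2. From 126000001 the other 3 libraries were nearly empty, at 0.95% and 3.25% untreated and 4.80% in treated replicate 2, where treated replicate 1 covered 33.6%. The bins from 135000001 and 116000001 followed, with leads of 25.4 and 25.2 percentage points. In the last of these treated replicate 1 covered 47.1%, and the other libraries 9.05% to 21.9%.

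Across each end of the stretch, coverage rose in all 4 libraries from the bin at lower positions to the next. Just inside the start, the bin from 80000001 had 14.7% and 28.4% untreated and 32.2% and 19.1% treated, and the bin just outside it had 2.70% and 4.35% untreated and 7.00% and 1.95% treated. At the far end the last bin inside had 2.25% and 3.75% untreated and 11.2% and 1.5% treated. The bin just beyond had 14.5% and 16.3% untreated and 21.2% and 15.9% treated. Treated replicate 1 led on either side of each end.

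At 50 kb resolution the stretch divides into 1600 bins. An island reached into 549 and 731 of them in the untreated libraries and into 965 and 511 in the treated ones. Bins at least 50% covered numbered 39 and 95 untreated and 254 and 52 treated, and bins at least 90% covered numbered 1 and 0 untreated and 19 and 2 treated. Only treated replicate 1 filled a bin entirely, in 2 cases. Covered bins formed short runs: the longest was 400 kb in untreated replicate 2, 300 kb in treated replicate 1, 200 kb in untreated replicate 1 and 150 kb in treated replicate 2. The stretch therefore held scattered islands in every library, not a continuous block.

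Few of these bins were common. Of 344 bins at least 50% covered in some library, 263 reached that level in 1 library, 68 in 2, 11 in 3 and 2 in all 4. The 2 common bins adjoin, from 130300001 to 130400000. Treated replicate 1 alone accounted for 191 of the 344 bins, 55.5%, beside 20.8% of such bins over the genome. The other libraries alone accounted for 16 and 33 (untreated) and 23 (treated replicate 2), which is 4.65%, 9.59% and 6.69%, beside 7.04%, 8.37% and 7.06% over the genome. Without treated replicate 1 these counts were 22 and 73 untreated and 30 treated.

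In the 191 bins treated replicate 1 covered a median of 63.0%, and the highest of the other libraries a median of 28.0%. Another library thus usually had an island in the same bin but less of it, and in 27 of the 191 bins the other 3 had none. The 191 bins formed 150 runs, 118 of them single bins. The longest run, 156050001 to 156300000, averaged 73.8% in treated replicate 1 and 12% to 21.6% in the others. The run from 126250001 to 126450000 averaged 62.5% in treated replicate 1 and held no island of another library.

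**Figure D2:**
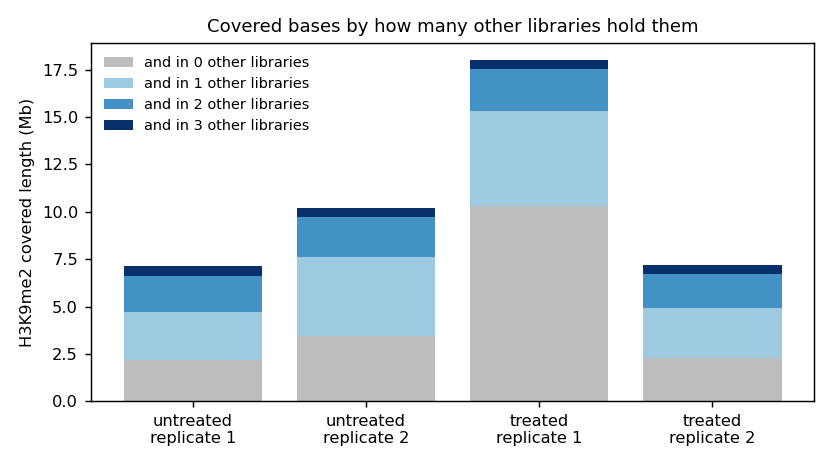
H3K9me2 covered length in Mb (vertical axis) for each library, stacked by how many of the other 3 libraries cover the same bases. In treated replicate 1 the part held alone is 10.3 Mb of 18.0 Mb, and the part held by all 4 libraries is 0.492 Mb in every bar.

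Base by base the lists shared little. Islands of any library covered 28.6 Mb, of which 18.2 Mb (63.8%) lay in 1 library, 7.20 Mb in 2, 2.67 Mb in 3 and 0.492 Mb (1.72%) in all 4. The share common to all 4 was 3.19% on the rest of chromosome 4 and 19.1% on the other chromosomes. Treated replicate 1 held 10.3 Mb that no other library covered, 57.1% of its length. The corresponding shares were 30.7% and 33.8% in the untreated libraries and 31.7% in treated replicate 2. Those libraries were set against the longest list, and treated replicate 1 only against shorter ones, so the shares are not on equal terms. For treated replicate 1 the share held alone was 46.5% on the rest of chromosome 4 and 28.9% on the other chromosomes.

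The longer list of treated replicate 1 did not take in most of what the others held. It covered 43.8% of the bases of untreated replicate 1, 46.4% of those of untreated replicate 2 and 42.4% of those of treated replicate 2, while covering 22.5% of the stretch. In the Jaccard index, shared bases over all bases of a pair, the pairs ran from 0.138 for the 2 treated libraries to 0.202 for treated replicate 1 with untreated replicate 2. Over the rest of the genome the same 2 pairs gave 0.348 and 0.393.

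**Figure D3:**
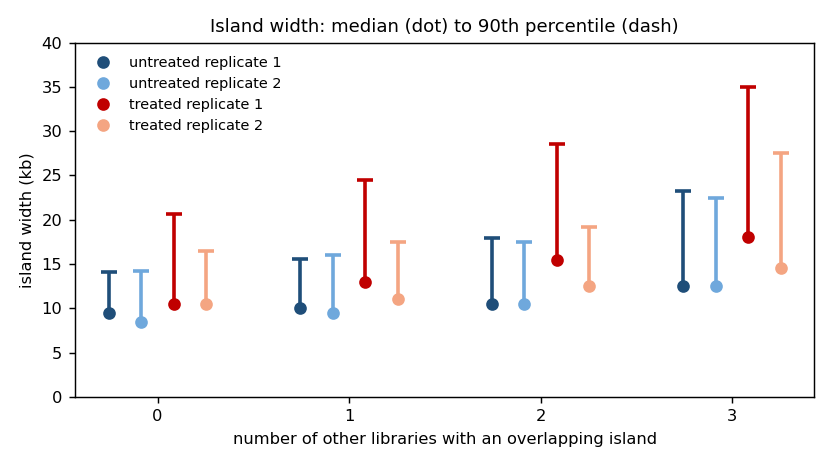
Width of H3K9me2 islands in kb (vertical axis) by the number of other libraries with an overlapping island (horizontal axis), for each library; dots are medians and dashes the 90th percentile. Widths rise with sharing in all 4 libraries, and treated replicate 1 has the highest 90th percentile in every class.

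Islands of treated replicate 1 were wider. The median island was 10.0 kb in each untreated library and 13 and 12 kb in treated replicates 1 and 2, and the 90th percentile was 18.5 and 17.5 kb untreated and 25 and 20.0 kb treated. Islands over 30 kb numbered 5 and 4 in the untreated and 61 and 10 in the treated libraries. The widest of treated replicate 1 was 75.5 kb, from 94361501 to 94437000, with an authors' score of 38.0, and it met islands of all 3 other libraries. The widest of the others were 38.5 kb and 32.0 kb untreated and 47.0 kb in treated replicate 2.

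In treated replicate 1, 488 of 1212 islands, 40.3%, overlapped no island of another library. The counts were 109 of 618 (17.6%) and 206 of 928 (22.2%) untreated and 96 of 542 (17.7%) in treated replicate 2. The contrast depends on which libraries are compared: without treated replicate 1, the counts of the other libraries were 204 and 426 untreated and 167 treated. That of treated replicate 1 was 561 to 681 when it too was set against 2 other libraries. These islands were the narrower part of each list, which their definition favours, since a wider island meets others more readily. Their median width was 10.5 kb in treated replicate 1, against 18.0 kb for its islands met in all 3 other libraries. In the other libraries the median of islands met by none was 9.50 and 8.50 kb untreated and 10.5 kb treated. Of the islands met by none, 10 in treated replicate 1 were at least 30 kb wide and 0 in each other library.

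By score the same islands were weak in all lists. Their median score was 7.58 in treated replicate 1, against 9.59 for its islands met by all 3 others. It was 7.02 and 7.90 untreated and 7.40 in treated replicate 2. Scores of different lists were not set on 1 scale, so ranks within a list are also given. The median island met by none stood at percentile 41.1 of the list of treated replicate 1. It stood at percentiles 25.1 and 32.7 of the untreated lists and percentile 31.0 of that of treated replicate 2. These ranks depend on the rest of each list. The whole list of treated replicate 1 had a median score of 8.32, against 9.59 and 9.84 untreated and 9.25 in treated replicate 2. All its islands in the stretch stood at a median percentile of 47.5, against 41.2 and 40.4 untreated and 42.6 in treated replicate 2. Islands met by all 3 other libraries stood at percentiles 54.2 to 62.7 in the 4 lists. Of the 488 islands of treated replicate 1 met by none, 37 (7.58%) lay within 50 kb of a base common to all 4 libraries. The same share was 10.1% and 10.2% untreated and 7.29% in treated replicate 2.

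How near the bases of treated replicate 1 alone lay to common islands depended on the distance used. Of its 10.3 Mb held alone, 10.6% lay within 50 kb of common bases, and 10.6% of the whole stretch lies that near. The corresponding share of what the other libraries held alone was 15.7% and 14.9% untreated and 17.6% in treated replicate 2. Within 10 kb it was 1.64% in treated replicate 1, beside 2.95% of the stretch, and within 100 kb 19.2%, beside 16.9%. The common bases themselves were thin, 114 runs with a median of 4.00 kb and a maximum of 12 kb. For islands met by none, the median distance to any island of another library was 15.5 kb in treated replicate 1. It was 8.00 and 8.50 kb untreated and 9.75 kb in treated replicate 2. Those libraries were measured against lists that include the longest, that of treated replicate 1. The distances are therefore not on equal terms, and no trait of these islands is read from them.

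Over the bases held by treated replicate 1 alone, 6.02 Mb (58.5%) lay in islands that met no other library. A further 3.53 Mb (34.3%) were extensions or end pieces of islands that did meet one, and 0.738 Mb (7.17%) bridged stretches of other libraries. In the other libraries islands met by none made up 48.5% to 56.7% of the bases held alone. In treated replicate 1 separate islands thus held more of these bases than widened ones did.

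The authors' island names carry running numbers with gaps. No header says what the gaps are, and reading them as islands left out below the score of 5 is an assumption. In the stretch, treated replicate 1 used 2105 numbers for its 1212 listed islands, so 893 numbers had no listed island. The other libraries had 301 and 340 such numbers untreated and 285 in treated replicate 2. For 100 of the 488 islands met by none, the running numbers of all 3 other lists had no gap at that position, and for 155 all 3 lists had a gap. Under that reading, a weaker island left out of the other lists could lie at the 155 positions but not at the 100. In the other libraries, islands met by none without a gap in any other list were 8 of 109 and 12 of 206 untreated. In treated replicate 2 they were 6 of 96. Those libraries were set against lists that include treated replicate 1, which has the most numbers without an island. The counts are therefore not on equal terms.

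The 10 longest runs held by treated replicate 1 alone were all whole islands, 30 to 39.5 kb wide. The longest, 153233001 to 153272500, had the highest score of the 488, 19.8, and lay 185 kb from the nearest island of another library. Those at 102435001 to 102472000 and 122543501 to 122576000 were also remote, 146 and 212 kb away, with scores of 11.9 and 16.5. The run at 127596501 to 127627500 lay 94.0 kb away and had a score of 9.94. By contrast 149246501 to 149284000, 150340001 to 150375000 and 85365501 to 85396000 began or ended within 1.00 kb of another library's island. The others were 97465501 to 97498500, 118416501 to 118446500 and 123331001 to 123361000, at 11, 16.5 and 7.00 kb.

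Other libraries held shorter runs alone. The longest were 26.0 kb in untreated replicate 1 (149526501 to 149552500), 24.5 kb in untreated replicate 2 (119243001 to 119267500) and 21 kb in treated replicate 2 (149450001 to 149471000). The next were 97251501 to 97271500 and 108573001 to 108593000 in untreated replicate 1 and 98299501 to 98322500 and 138675001 to 138696500 in untreated replicate 2. In treated replicate 2 they were 156389001 to 156410000 and 100929001 to 100949500. Together these 9 runs spanned 20.0 to 26.0 kb.

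The 5 longest runs common to all 4 libraries were 10.0 to 12 kb. They were 107933001 to 107945000, 82984001 to 82995500, 96763501 to 96774000, 82114001 to 82124000 and 97073001 to 97083000. At the first, the islands were 28.0 and 18.5 kb wide untreated and 12.5 and 23 kb treated, so treated replicate 1 had the narrowest. At the last they were 15.0 and 23.5 kb untreated and 32.5 and 15.5 kb treated, and treated replicate 1 had the widest. At these loci, picked by the length of the common run, treated replicate 1 was thus not uniformly broader. Over all islands met by the 3 other libraries it was the widest, with a median of 18.0 kb. The median there was 12.5 kb in each untreated library and 14.5 kb in treated replicate 2.

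H3K9ac in the stretch did not follow the H3K9me2 excess of treated replicate 1. Peaks numbered 2634 and 1478 in the untreated and 1240 and 1120 in the treated libraries, and they covered 947 and 475 kb untreated and 816 and 585 kb treated. Untreated replicate 1 was the highest in both measures, and in length the groups overlapped. The condition means were 0.711 Mb ± 0.334 untreated and 0.70 Mb ± 0.163 treated (SD, n = 2), and permuting the condition labels exactly, two-sided, gave p = 1. Such a design cannot give a p below 0.33. The sign of the difference depended on the lists, and lists cut to an equal number of peaks gave 154 kb more in treated cells (exact permutation p = 0.33).

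The reproducible H3K9ac sets, 1 per condition, held 237 regions in untreated and 272 in treated cells here. The whole sets hold 14377 and 21098 regions, so the stretch had 1.65% of the untreated and 1.29% of the treated set. Their median width was 1096 bp untreated and 2028 bp treated. A treated region overlapped 216 of the untreated ones, 91.1%, and an untreated region overlapped 175 of the treated ones, 64.3%. All but 7 of the untreated and 3 of the treated regions met no H3K9me2 island of any library. The highest-scoring treated regions were 83930119 to 83934141, 107235604 to 107239065, 99180639 to 99184625, 146856188 to 146860620 and 89442965 to 89445648. The authors' scores, which appear to be −log10 values of a rate of irreproducible calls, were 6.01 to 6.10. The highest-scoring untreated regions were 111117256 to 111120049, 128981504 to 128984068, 110354065 to 110356353, 83349096 to 83352875 and 83810945 to 83813258, with scores of 4.75 to 4.89.

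Stretches of H3K9me2 found in treated replicate 1 alone were poor in H3K9ac in all 4 H3K9ac libraries. H3K9ac covered 5712 and 2118 bp per Mb of these bases in the untreated and 495 and 857 bp per Mb in the treated libraries. Bases without any H3K9me2 island carried 14705 and 7727 bp per Mb untreated and 15693 and 10900 bp per Mb treated. Every library was lower in the former, including the untreated ones, although no H3K9me2 island was listed there for untreated cells. Bases with islands in all 4 libraries carried 5591 and 3404 bp per Mb untreated and 201 and 291 bp per Mb treated. Only 0.492 Mb falls in that class, with at most 9 peaks in a library.

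**Figure D4:**
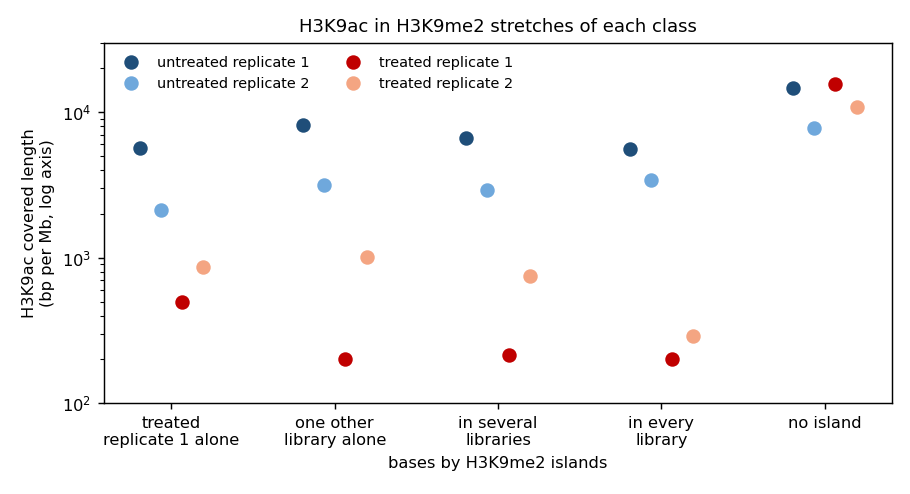
H3K9ac covered length in bp per Mb (log axis) for each H3K9ac library, in bases grouped by which libraries hold an H3K9me2 island. All 4 libraries are highest in bases without an island, and the treated libraries lie below the untreated ones in each class with an island.

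Between conditions, H3K9ac in the stretches of treated replicate 1 alone averaged 3915 bp per Mb ± 2541 untreated and 676 bp per Mb ± 256 treated (SD, n = 2). The treated libraries lay below the untreated ones without overlap, and the exact permutation p was 0.33, the smallest the design allows. The peaks there, counted by their midpoints, numbered 213 and 103 untreated and 29 and 62 treated. Their median widths were 238 and 175 bp untreated and 113 and 114 bp treated. Without an island the medians were 239 and 220.5 bp untreated and 240 and 181 bp treated. Median scores there were 1.6 and 1 untreated and 1 and 1.33 treated. Without an island they were 1.62 and 1.39 untreated and 3.01 and 2.37 treated. By these medians untreated replicate 1 showed almost no contrast, and the other libraries had weaker and narrower peaks there. The highest score in the stretches of treated replicate 1 alone was 4.58 and 3.83 untreated and 4.03 and 3.21 treated. In bases without an island it was 43.3 and 21.2 untreated and 175.1 and 133.9 treated. Those bases held many more peaks, 1938 and 1108 untreated and 1181 and 951 treated, so the highest scores are not on equal terms. In covered length, other classes of H3K9me2 gave the same order of conditions. Bases held by a single other library had 8117 and 3136 bp per Mb untreated and 202 and 1013 bp per Mb treated.

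The number of these peaks did not follow the length of the lists. Over the genome the untreated lists hold 120630 and 59724 peaks and the treated lists 79538 and 69151, so the shortest list, untreated replicate 2, had more peaks here than either treated one. With the 59724 highest-scoring peaks of each list, the stretches of treated replicate 1 alone had 2480 and 2118 bp per Mb untreated and 225 and 544 bp per Mb treated. The narrowest peak was 238 and 175 bp in the untreated and 99 and 114 bp in the treated lists, so the lists also differ in the smallest interval they hold.

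Reproducible H3K9ac regions were few in H3K9me2 islands of every class. By midpoint, 2 of 237 untreated and 0 of 272 treated regions fell in bases of treated replicate 1 alone, 12.9% of the stretch. Bases of a single other library held 3 and 0, those of 2 or 3 libraries 1 and 0, and those of all 4 libraries 0 and 0. The scarcity was thus not particular to treated replicate 1 alone. By any overlap, 3 regions of each set met its bases held alone. The treated ones were 142141839 to 142143707 (score 5.69), 102711231 to 102712725 (score 4.47) and 105415859 to 105417416 (score 1.31). The first of these overlaps the untreated region 142142031 to 142143188, whose score was 3.90. The other untreated ones, 148000939 to 148001258 and 98571143 to 98571396, were narrow and had scores of 1.94 and 1.46. All 3 treated regions had their midpoints outside every island.

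The 1 Mb bins gave the same picture at a coarser scale. The 80 bins were ranked by mean H3K9me2 coverage of the 4 libraries and divided into 27, 26 and 27. In the 27 bins with the most H3K9me2, H3K9ac covered 7.43 and 3.70 kb per Mb untreated and 2.77 and 2.60 kb per Mb treated. In the middle 26 it was 11.3 and 5.40 untreated and 9.11 and 6.45 treated. In the 27 with the least H3K9me2 it was 16.7 and 8.68 kb per Mb untreated and 18.7 and 12.9 kb per Mb treated. H3K9ac was thus lower where H3K9me2 was higher in all 4 libraries, by a wider ratio in the treated ones.

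**Figure D5:**
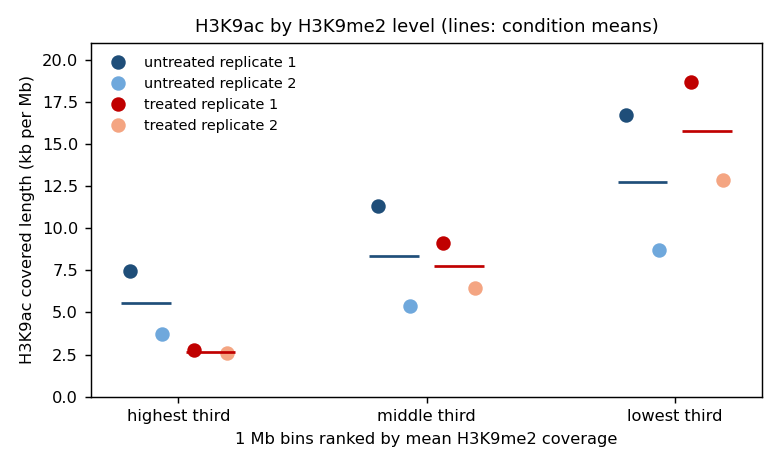
H3K9ac covered length in kb per Mb (vertical axis) for each library in 1 Mb bins ranked by mean H3K9me2 coverage and divided into 3 parts; points are libraries and lines condition means. In the 27 bins with the most H3K9me2 the treated libraries sit at 2.60 and 2.77 kb per Mb, below the untreated ones, and the groups overlap in the other parts.

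Condition means in the 27 bins with the most H3K9me2 were 5.57 ± 2.64 kb per Mb untreated and 2.69 ± 0.114 treated (SD, n = 2), an exact permutation p of 0.33. In the 27 bins with the least they were 12.7 ± 5.70 and 15.8 ± 4.12, with p = 0.667 by the same exact test. Whether the difference between conditions changed with H3K9me2 was not tested. Of the 27 bins with the most H3K9me2, 14 held no reproducible untreated and 13 no reproducible treated region, against 0 and 0 of the 27 with the least. In the bin from 93000001, where treated replicate 1 led by the most, H3K9ac covered 4.35 and 1.76 kb untreated and 0.113 and 0.538 kb treated, without a reproducible region in either set. The bin from 126000001 was different, with 8.53 and 3.88 kb untreated, 7.69 and 3.92 kb treated, and 2 and 3 reproducible regions.

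Coverage of H3K9me2 and H3K9ac ran opposite across the 80 bins whichever libraries were paired. With treated replicate 1 of H3K9me2, Spearman's rho was -0.78 and -0.71 for the untreated and -0.80 and -0.77 for the treated H3K9ac libraries, and Pearson's r was -0.74, -0.64, -0.75 and -0.71. With treated replicate 2 of H3K9me2 the rho was -0.42 and -0.36 untreated and -0.53 and -0.44 treated. Untreated replicate 2 of H3K9me2 came close to treated replicate 1, with a rho of -0.71 and -0.66 untreated and -0.80 and -0.74 treated, and untreated replicate 1 had -0.52, -0.44, -0.62 and -0.54. The inverse relation was thus not particular to treated replicate 1. Bins share libraries and gene content, and no test was made.

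At 50 kb resolution no bin passed the test for a change of H3K9ac between conditions. Over 49865 bins with a peak, limma called 0 higher and 0 lower at a Benjamini-Hochberg adjusted p under 0.05, a background of 0% in each direction, with 2378 higher and 5013 lower at an unadjusted p under 0.05. In the stretch 0 of 1489 bins were called in either direction, and 26 were higher and 171 lower at an unadjusted p under 0.05. With the replicate number as a term in limma, 46 of the 1489 bins of the stretch were called higher and 6 lower. Over the genome 4316 of 49865 bins were called higher (8.66%) and 368 lower (0.738%). In this fit the stretch had the smaller share of calls in either direction, but the labels do not state that same-numbered replicates belong together. The order was not general. In the fit without that term, bins lower at an unadjusted p under 0.05 made up a larger share of the stretch than of the genome. Treated libraries lay wholly below untreated ones in 405 of the 1489 bins, 27.2%, beside 22.8% over the genome, and wholly above in 191, 12.8%, beside 18.9%. Of the 191 bins held by treated replicate 1 of H3K9me2 alone, 129 and 88 had an untreated H3K9ac peak and 29 and 58 a treated one. These are 67.5%, 46.1%, 15.2% and 30.4%, beside 78.2%, 56.8%, 37.7% and 43.4% of the 1256 bins under 50% in every H3K9me2 library. Treated libraries had a peak in fewer bins than untreated ones in either class.

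The excess of treated replicate 1 depended in size on the score cut of the lists. With every list cut to its highest-scoring islands at equal length over the genome, it covered 13 Mb of the stretch, against 6.72 and 8.49 Mb untreated and 7.21 Mb in treated replicate 2. Its bins of 50 kb held alone then fell to 117 and its islands met by none to 316.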

How the data were processed

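H3K9me2 and H3K9ac were profiled in MDA-MB-231 cells, 4 libraries per mark (2 per condition). Input samples were not analysed here. Per the submitters' processing notes, the tools were SICER, MACS2, Picard, BWA 0.7.5 and Trimmomatic 0.32 on hg19, listed with no order. How they were set, how inputs entered and the depth were not given in the sources used here. Deposited lists hold interval positions and the authors' score per peak or island; the reproducible sets hold 1 deposited value per region that appears to be −log10 of a rate of irreproducible calls. Scores were used only to rank or trim within a list. H3K9me2 lists were called per library, and their ends were extended by 1 bp.

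Covered bases, overlaps of at least 1 bp, and bins of 50 kb (covered at 50% or more) and 1 Mb were computed with numpy 2.4.6, SciPy 1.17.1 and pandas 2.3.3 under Python 3.11.15. Bins on 23 chromosomes gave the background; the H3K9ac covered share of 50 kb bins, after an arcsine square root, was compared by limma 3.58.1 (R 4.3.3, trended prior variance), a step tested on simulated data. Condition labels were permuted exactly, two-sided. P-values measure the spread between these cultures only.

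Loci were named by rule: the longest runs of each library alone and of all 4, the 1 Mb bins with the most H3K9me2 and the widest lead, and the highest-scoring reproducible H3K9ac regions or those overlapping runs of treated replicate 1 alone. The stretch, the lists and these rules were chosen with earlier results of these data known, and the ranking of 1 Mb bins into 3 parts and the running island numbers were taken up after seeing the files. The groups of genes set for naming were not used, because no annotation on hg19 was used here.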

Additional observations from a re-analysis of the deposited data

How the results depend on the processing

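Treated replicate 1 covered more of the stretch than the mean of the others in the 3 alternatives run on the lists: the ratio was 2.20, 1.75 with lists of equal length, 2.02 with lists of equal island number and 1.98 with islands of score 10 or more, the last added after seeing the data. Its 191 bins of 50 kb held alone became 62 at a 75% cut and 117 with lists of equal length, and 197 to 231 without 1 other library. Its 488 islands met by none became 313 when islands within 10 kb counted as shared, 316 with lists of equal length, and 561 to 681 without 1 other library. The treated minus untreated H3K9me2 difference ran from -1.45 Mb (without treated replicate 1) to 9.36 Mb (without treated replicate 2). Nearness to common bases, minus that of the stretch, was 0.03 percentage points at 50 kb, -1.31 at 10 kb and 2.26 at 100 kb. The H3K9ac difference over the stretch, -10.4 kb, became 154 kb with lists of equal peak number and ran from -247 to 226 kb without 1 library. In the stretches of treated replicate 1 alone it kept its sign, from -5036 to -1442 bp per Mb without 1 library. In the 27 bins with the most H3K9me2 it ran from -4.75 to -1.01 kb per Mb.

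For H3K9ac in 50 kb bins, limma called 0 with log2(bp + 100), with bins of at least 2 libraries and with equal peak numbers. Without 1 library, which leaves a lone sample assumed to vary like the others, it called 0 to 685 higher and 0 to 17097 lower, and in the stretch 0 to 15 and 0 to 564; without untreated replicate 1 it was 15 and 367 there and without untreated replicate 2 it was 9 and 564. Without untreated replicate 1 the fit tested 1190 bins in the stretch and 40348 over the genome. Without untreated replicate 2 it tested 1375 and 47388. In both fits most bins called lower lay outside the stretch, so such calls were not particular to it. A replicate block in limma gave 4316 higher and 368 lower bins, of them 46 and 6 in the stretch. The labels give no batch for a replicate number. Deviations of same-numbered H3K9ac libraries from their condition means correlated at 0.0087 over 50 kb bins. With 2 libraries per condition this is 1 value for both numbers. It cannot tell whether same-numbered libraries shared a culture or batch, and it does not cover H3K9me2. The replicate block left the mean differences as they were; within numbers H3K9me2 differed by 10.9 and -2.99 Mb. The cause of these shifts was not tested. Scores and calls, not read counts, limit what the lists can show.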
